A study of Mus musculus with 56 samples.

Results

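The sequence variants assigned to Muribaculaceae, the family called S24-7 in Greengenes 13_8, were followed in the intestinal contents of 28 male mice. An amplicon sequence variant (ASV) is a distinct sequence of the amplified V3–V4 region of the bacterial 16S rRNA gene. Every row of the ASV table whose family was S24-7 was taken, which gave 103 of 938 ASVs. Counts were present for 95 of these and for 864 ASVs in all, and the other 8 members were at 0 in every library. None of the 103 carried a genus or species name, so they are given by their ASV number. Wild-type C57BL/6J animals (WT) and animals lacking the melanocortin-4 receptor (MC4R KO, here KO) were each divided between a normal diet (ND) and a Western diet (WD), with 6 mice in WT-ND, 6 in WT-WD, 8 in KO-ND and 8 in KO-WD. All were males, housed singly, that had eaten the same chow and then the normal diet in the same room before the 12 weeks on their assigned diet, which began at 10 weeks of age. The wild-type mice came from a supplier and the knockout mice were generated separately, so the genotype and the colony of origin cannot be told apart. Small intestinal contents (SI) and large intestinal contents (LI) of each mouse gave 56 libraries.

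Muribaculaceae are strictly anaerobic Gram-negative bacteria of the order Bacteroidales and are among the most abundant families of the mouse large intestine. They break down complex carbohydrates from the diet and from host mucus and ferment them to short-chain fatty acids. Most of them have no cultured representative, which is why the older databases held the family under a clone name. MC4R is a brain receptor through which melanocortin peptides curb feeding, and its loss makes mice obese. The table identifies an ASV by number and taxonomy, so no sequences are shown. A bacterial genome can carry several copies of the 16S gene, and an ASV is therefore not the same as a species.

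Libraries held 22550 to 35236 counts in total (median 29721), and the 95 members held 89015 of 1635252 counts (5.44%). Values are shares of the library total, so that a share can fall because other bacteria rose, and the number of bacteria per gram was not measured. The site labels were checked with 3 bacterial orders. Mean Clostridiales and Bacteroidales were higher in LI than in SI and mean Lactobacillales were lower in LI in all 4 groups. SI of KO-ND replicate 5 stood apart from its group, with 49.2% Clostridiales against 0.160 to 11.99% in the other KO-ND SI libraries and 12.4% Lactobacillales against 21.7 to 49.9%. The SI results it moves most are also given without it. No S24-7 count was found in SI of KO-ND replicate 7, in SI of KO-WD replicates 2, 4, 5, 6, 7 and 8 and in LI of KO-WD replicate 5. A count of 0 in these 8 libraries allows a share of up to 0.00851 to 0.0130% (3 counts of the total), a limit that covers counting error only.

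WT and KO mice carried largely different Muribaculaceae. Of the 95 ASVs with counts, 29 were found in WT mice only, 60 in KO mice only and 6 in both (6.32%). Among the 769 ASVs outside the family, 214 (27.8%) were found in both genotypes. The contrast was not limited to rare ASVs. Of the 54 members with at least 100 counts in all, 12 were found in WT only, 36 in KO only and 6 in both (11.1%), whereas 51.4% of the 323 other ASVs of that depth were found in both. Sharing varied between families, with 38.3% of 196 ASVs in Lachnospiraceae and 39.4% of 155 in Ruminococcaceae but 2 of 29 (6.90%) in Erysipelotrichaceae, 3 of 23 (13.0%) in Lactobacillaceae and none of 6 in Desulfovibrionaceae. By counts, the ASVs found in both genotypes held 98.6% of Erysipelotrichaceae and 94.1% of Lactobacillaceae, but 32.8% of S24-7. They held 73.2% of Lachnospiraceae, 62.9% of Ruminococcaceae, 9.43% of the other Bacteroidetes and 88.9% of all ASVs outside S24-7. The other Bacteroidetes resembled S24-7, with 2 of 39 ASVs (5.13%) in both genotypes, and none of 12 ASVs of Bacteroidaceae was shared. The numbers of ASVs and the shares of counts are pooled over the libraries of 12 WT and 16 KO mice and carry no test.

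**Figure D1:**
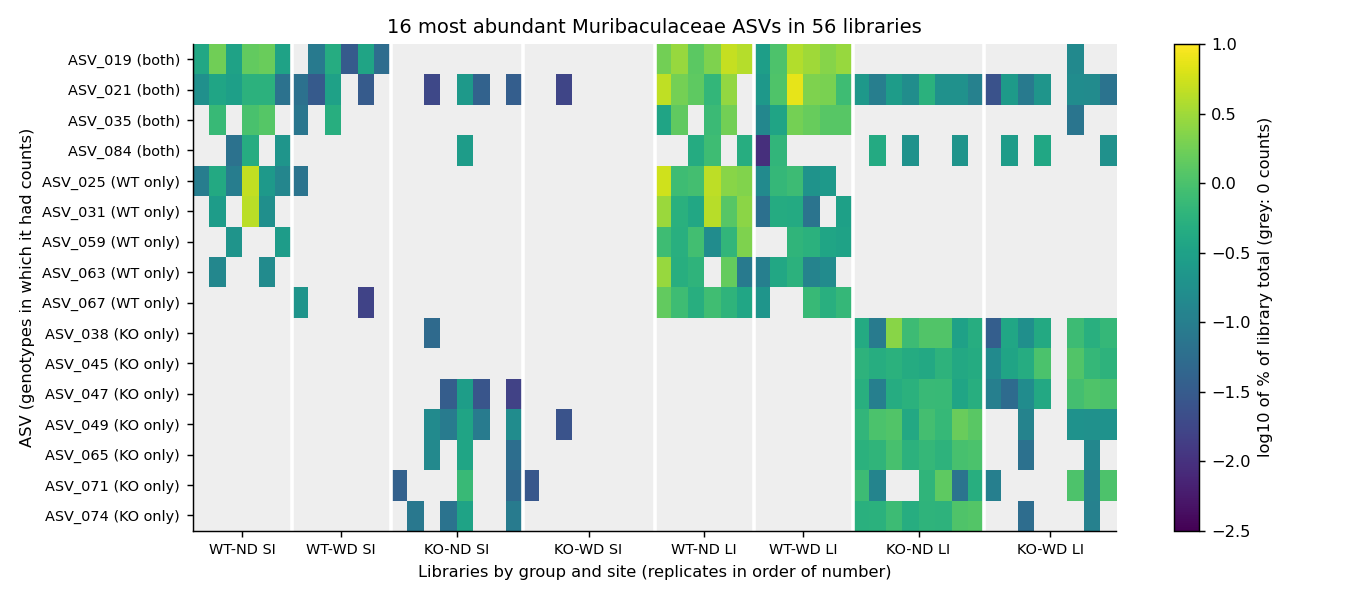
Heat map of the 16 most abundant Muribaculaceae ASVs (rows, with the genotypes in which counts were found) in 56 libraries (columns, by group and site), colored by log10 of the percent of the library total, with grey for 0 counts. ASV_025, ASV_031, ASV_059, ASV_063 and ASV_067 have counts only in WT columns, ASV_038, ASV_045, ASV_047, ASV_049, ASV_065, ASV_071 and ASV_074 only in KO columns, and ASV_021 in most columns of LI.

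The 6 shared ASVs were ASV_019, ASV_021, ASV_035, ASV_084, ASV_085 and ASV_141. Of the S24-7 counts of WT libraries, 49.5% came from WT-only ASVs and 50.5% from the shared ones. In KO libraries 91.7% came from KO-only ASVs and 8.34% from the shared ones. For ASV_019 and ASV_035 the sharing rested on 1 KO library, LI of KO-WD replicate 6, with 42 counts of the former and 21 of the latter. That library held 3 ASVs that were found in at least 6 WT libraries and no other KO library, against 0 to 2 in each of the other 31 KO libraries, and these took 0.289% of its counts. Without it, neither ASV had a count in KO mice, and the part of the S24-7 counts of WT libraries that came from shared ASVs was 19.5%, with 31 WT-only, 59 KO-only and 4 shared members. ASV_021 was the only 1 of the 12 most abundant members with counts in more than 1 KO library and in WT libraries, and it was found in 21 WT and 20 KO libraries.

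**Figure D2:**
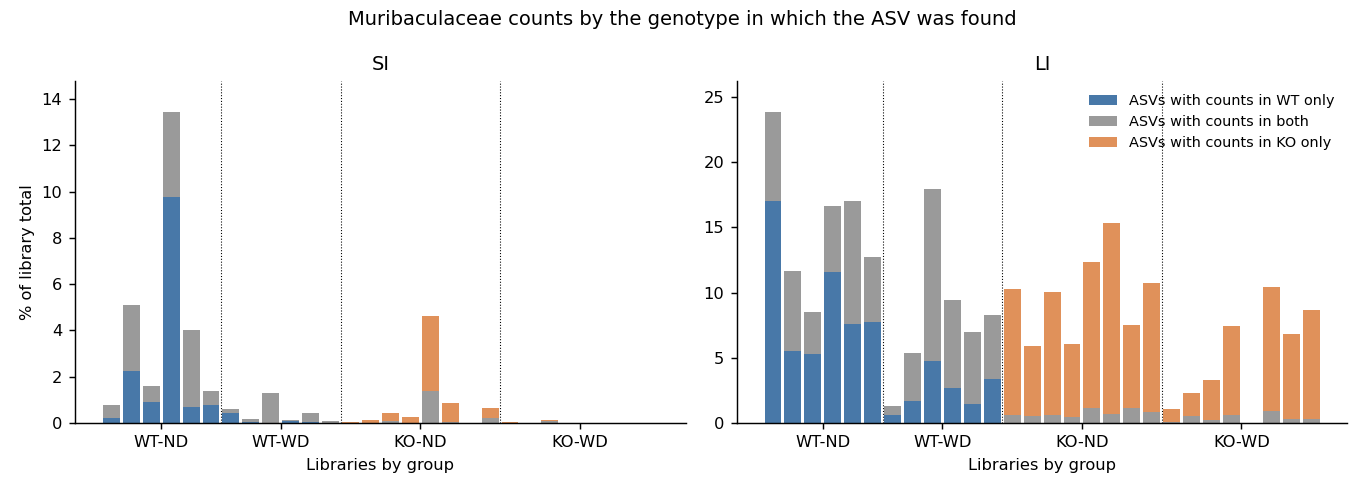
Stacked bars of the percent of each library's counts that came from Muribaculaceae ASVs found in WT mice only, in both genotypes and in KO mice only, for SI (left) and LI (right), 1 bar per library in order of replicate number. Of the S24-7 counts, ASVs found in both genotypes gave 50.5% in WT and 8.34% in KO libraries.

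Each ASV was then tested for the genotype effect, the difference of KO and WT averaged over both diets, with the quasi-likelihood test of edgeR and Benjamini-Hochberg adjustment over all tested ASVs of the site. In LI, 46 members passed the filter on low values, and 27 of them were higher and 15 lower in KO mice (42 members, 91.3%). Over all 273 ASVs tested in LI 61.2% were called, 34.4% higher and 26.7% lower. An ASV found in 1 genotype could pass the filter only through that genotype, so this count describes the partition above and is no separate support for it. The same holds for the genotype folds and adjusted p given below for single ASVs that had counts in 1 genotype at a site. It also holds for ASV_019 and ASV_035 in LI, whose KO counts lay in 1 library and which passed the filter only through WT. Several of these ASVs were named for a low adjusted p in this same comparison. The 27 higher members were all KO-only ASVs, and the 15 lower ones were 12 WT-only ASVs and the shared ASV_019, ASV_021 and ASV_035. The 4 members not called were ASV_084, ASV_085, ASV_141 and the KO-only ASV_112. ASV_112 had no count in WT mice. Its LI mean was at least 296-fold higher in KO, and its missing call does not show equal shares. In SI, 13 members were tested, of which 3 were higher and 6 lower in KO mice (69.2%), where 70.1% of the 87 ASVs tested were called, 21.8% higher and 48.3% lower. Those not called in SI included ASV_047, ASV_074 and ASV_077, which likewise had no count in WT mice. Without KO-ND replicate 5, 7 members were called in SI.

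The WT members were led by ASV_019, the most abundant of the family. In LI its share was 1.30 to 4.87% (median 2.50%) in WT-ND and 0.286 to 4.00% (median 2.59%) in WT-WD, and it was at 0 in all 8 KO-ND libraries and in 7 of 8 KO-WD libraries. Every WT library of LI lay above the highest KO library, at 0.144%. The mean was 284-fold higher in WT than in KO (2.56% against 0.00903%, edgeR adjusted p = 1.23e-06). The KO mean, and with it this fold, rests on 1 library, KO-WD replicate 6. In SI the share was 0.329 to 1.75% (median 0.929%) in WT-ND and 0 to 0.463% (median 0.0710%) in WT-WD, and no KO library had a count. Against a limit of 3 counts over the pooled KO libraries of SI this was at least 810-fold higher in WT (edgeR adjusted p = 2.42e-05). ASV_035 had the same distribution over genotypes at a lower level, with 0 to 1.82% (median 0.559%) in WT-ND and 0.132 to 1.83% (median 1.23%) in WT-WD of LI (edgeR adjusted p = 1.71e-05).

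ASV_025 and ASV_031 were found in WT mice only. In LI, ASV_025 was at 0.820 to 5.60% (median 2.29%) in WT-ND and 0 to 0.795% (median 0.219%) in WT-WD, so that every WT-ND library lay above every WT-WD library. Over both diets it was at least 2413-fold higher in WT than in KO (edgeR adjusted p = 3.81e-07). ASV_031 was at 0.397 to 4.21% (median 1.86%) in WT-ND and 0 to 0.456% (median 0.191%) in WT-WD, with ranges that overlapped, and was at least 1716-fold higher in WT than in KO (edgeR adjusted p = 9.60e-07). In SI both reached their highest share in WT-ND replicate 4, at 4.80% for ASV_025 and 4.40% for ASV_031, against medians of 0.190% and 0.0863%. ASV_059, ASV_063 and ASV_067 had means of 0.758 to 0.925% in WT-ND and 0.222 to 0.354% in WT-WD of LI and were at least 871-fold higher in WT than in KO (edgeR adjusted p of 5.15e-06 or less). ASV_101, a less abundant WT-only member, was among the 3 members of lowest adjusted p that were lower in KO in SI, at 0 to 0.599% (median 0.168%) in WT-ND and 0 to 0.151% in WT-WD (edgeR adjusted p = 5.12e-05).

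ASV_021 was the member found most widely, in 41 of 56 libraries. Its LI share in WT mice was 0 to 4.66% on the normal diet (median 1.61%) and 0.231 to 7.36% on the Western diet (median 1.54%). In KO mice it was 0.0982 to 0.540% on the normal diet (median 0.187%) and 0 to 0.253% on the Western diet (median 0.120%). WT-ND and WT-WD covered each other, and the lowest WT libraries lay within the KO range. The mean in LI was 12.1-fold higher in WT, and the fitted log2 change was -3.65 ± 0.85 (SE, edgeR adjusted p = 0.000483). In SI the log2 change was -3.94 ± 1.48 (SE, edgeR adjusted p = 0.0152), with counts in 6 of 6 WT-ND, 4 of 6 WT-WD, 4 of 8 KO-ND and 1 of 8 KO-WD libraries. The shared ASV_084, ASV_085 and ASV_141 were found in fewer libraries and differed less between genotypes. Their LI means differed 1.90-fold, 2.71-fold and 1.58-fold between genotypes, and ASV_085 was the 1 of them that was higher in KO. ASV_085 had no count in WT SI and was called higher in KO there (at least 48.3-fold, edgeR adjusted p = 0.00130), with counts in 3 of 8 KO-ND and 1 of 8 KO-WD libraries and its highest share, 0.455%, in the KO-ND replicate 5 library that stood apart. This call was lost with DESeq2 (adjusted p = 0.103), and without KO-ND replicate 5 the ASV did not pass the filter. ASV_085 had counts in the fewest SI libraries that the filter allows, so leaving out any 1 of them removed it.

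The KO-only members were more numerous and individually less abundant. ASV_045 was the most even of them, at 0.406 to 0.581% (median 0.462%) in all 8 KO-ND libraries of LI and 0 to 1.11% (median 0.515%) in KO-WD. It had no count in any SI library. In LI it was at least 641-fold higher in KO than in WT (edgeR adjusted p = 9.60e-07). ASV_038 was at 0.0910 to 2.40% (median 0.630%) in KO-ND against 0 to 0.805% (median 0.399%) in KO-WD, at least 757-fold above WT (edgeR adjusted p = 1.42e-06). ASV_047 was at 0.102 to 0.739% (median 0.507%) in KO-ND against 0 to 1.07% (median 0.283%) in KO-WD, at least 591-fold above WT (edgeR adjusted p = 1.76e-06). All 3 had counts in every LI library of KO mice except KO-WD replicate 5. ASV_049 was at 0.414 to 1.57% (median 0.962%) in KO-ND against 0 to 0.193% (median 0.0589%) in KO-WD, without overlap of the diets, and was at least 647-fold higher in KO than in WT (edgeR adjusted p = 1.28e-05). In SI, ASV_049 and ASV_071 were called higher in KO (edgeR adjusted p = 0.00104 and 0.00130), with counts in 5 of 8 and 3 of 8 KO-ND libraries and in 1 of 8 KO-WD libraries each. The call of ASV_049 in SI was lost without KO-WD replicate 3, the 1 KO-WD SI library with its counts (adjusted p = 0.9997), and that of ASV_071 was lost with DESeq2 (adjusted p = 0.140). Without KO-ND replicate 5, ASV_071 did not pass the filter and ASV_049 was still called (edgeR). ASV_071 had counts in the fewest SI libraries that the filter allows, so leaving out any 1 of them removed it.

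Summed over its ASVs, the family was highest in WT-ND and lowest in KO-WD in both sites. WT-ND libraries of SI had 0.783 to 13.4% (median 2.80%, mean 4.38 ± 4.74%, SD, n = 6), and WT-WD libraries had 0.0571 to 1.28% (median 0.293%, mean 0.434 ± 0.462%, SD, n = 6). KO-ND libraries of SI had 0 to 4.62% (median 0.341%, mean 0.866 ± 1.54%, SD, n = 8), and KO-WD libraries had 0 to 0.105% (median 0, mean 0.0166 ± 0.0371%, SD, n = 8). Only 2 of 8 KO-WD SI libraries had any S24-7 count, with 7 and 25 counts, and every WT-ND library lay above all of them. In LI the share was 8.50 to 23.9% (median 14.7%, mean 15.1 ± 5.36%, SD, n = 6) in WT-ND and 1.26 to 17.9% (median 7.63%, mean 8.21 ± 5.56%, SD, n = 6) in WT-WD. It was 5.92 to 15.4% (median 10.2%, mean 9.79 ± 3.23%, SD, n = 8) in KO-ND against 0 to 10.4% (median 5.08%, mean 5.01 ± 3.83%, SD, n = 8) in KO-WD. The LI ranges of all 4 groups overlapped.

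**Figure D3:**
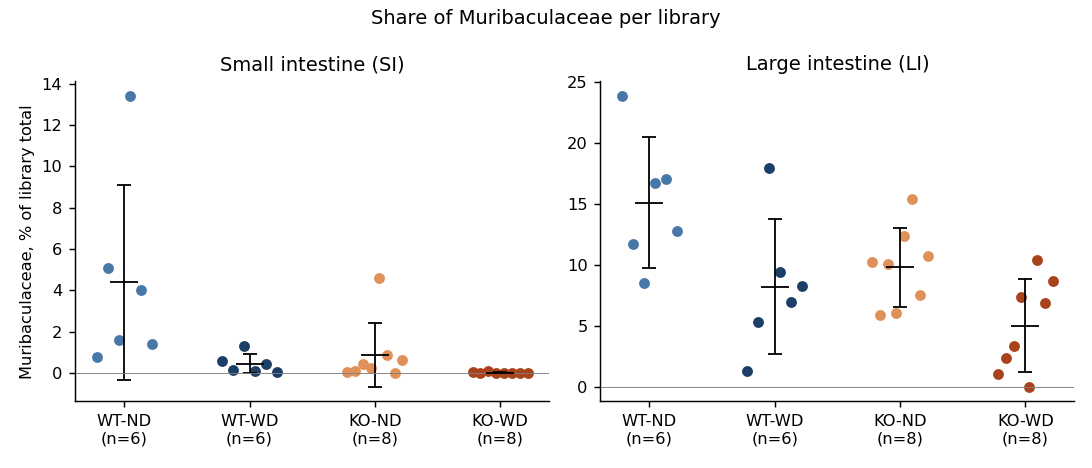
Muribaculaceae as percent of the library total in SI (left) and LI (right), 1 point per library, with the mean and SD of each group in black. The WT-ND mean is the highest in both sites (4.38% and 15.1%) and the KO-WD mean the lowest (0.0166% and 5.01%), with overlapping points in LI.

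In SI the family was lower in KO than in WT mice over both diets, with a log2 change of -3.51 ± 1.08 (SE, edgeR adjusted p = 0.00469), where 61.9% of the 21 families tested were called. Without KO-ND replicate 5 it was -4.20 (edgeR adjusted p = 0.00105). KO-WD was lower than WT-ND (log2 change -8.01 ± 1.85, edgeR adjusted p = 0.00169), and 52.4% of families were called in that comparison. In LI the same family sum gave no call. The genotype effect was -0.67 ± 0.53 on the log2 scale (edgeR adjusted p = 0.333), where 41.4% of 29 families were called, and DESeq2 (adjusted p = 0.0306) and limma on centred log ratios (adjusted p = 0.0228) did call it lower in KO. KO-WD against WT-ND in LI gave -1.59 ± 0.76 (edgeR adjusted p = 0.0980), with 20.7% of families called. This value passed the threshold with DESeq2 (adjusted p = 0.00496), with limma on centred log ratios (adjusted p = 0.00405), with the exact rank-sum test (adjusted p = 0.0258) and without KO-WD replicate 5 (edgeR adjusted p = 0.0346). Between KO-WD and WT-ND, 27 members were higher and 15 lower in LI (91.3% of 46), again a description of ASVs of which most passed the filter through 1 genotype only. Over all ASVs tested 54.2% were called there, 33.7% higher and 20.5% lower. In SI none of 13 was higher and 7 were lower (53.8%), and over all ASVs 54.0% were called, 13.8% higher and 40.2% lower. The lowest adjusted p in LI were those of ASV_025 (4.11e-05), ASV_031 (6.91e-05) and ASV_059 (0.000428), which were lower, and of ASV_045 (0.000283), ASV_038 and ASV_047 (0.000428 each), which were higher (edgeR). The 42 calls in LI came to 24 with the replicate number as a block and to 14 with the exact rank-sum test.

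The Western diet effect was examined within each genotype, which compares mice of the same origin. In WT mice no member was called in either site (edgeR). At an unadjusted p under 0.05 there were 0 of 46 in LI and 3 of 13 in SI, DESeq2 called 0 in both sites and limma on centred log ratios called 3 in LI and 5 in SI. Over all ASVs 1.1% were called in LI and 0.0% in SI. In LI, 18 of the 46 members and 193 of all 273 ASVs tested had a measurable ratio between the diets. In SI these numbers were 7 of 13 and 68 of 87. The other members had no count in WT mice at the site and could not be called with edgeR. Shares were nevertheless lower in WT-WD for 15 of the 18 tested members with a measurable ratio in LI, with a median log2 ratio of -1.32 against 0.65 over all ASVs. For ASV_025 and ASV_031 the LI means were 7.99-fold and 8.86-fold lower in WT-WD (edgeR adjusted p = 0.396 for both), whereas ASV_019, ASV_021 and ASV_035 differed by 1.20-fold to 1.46-fold. Summed, the WT-only ASVs took 5.29 to 17.1% of LI libraries in WT-ND (mean 9.12 ± 4.498%, SD, n = 6) and 0.606 to 4.74% in WT-WD (mean 2.41 ± 1.496%, SD, n = 6), without overlap. The ASVs found in both genotypes took 5.96 ± 2.09% and 5.79 ± 4.19% (SD, n = 6 each), and these sums were not tested. This division rests on KO-WD replicate 6. Without that library ASV_019 and ASV_035 counted as WT-only, and the WT-only ASVs took 6.59 to 19.2% (mean 12.7%) in WT-ND and 1.02 to 10.6% (mean 5.75%) in WT-WD, with overlap. Within the family the mean share of ASV_025 was 16.6 ± 7.65% in WT-ND and 5.75 ± 5.25% in WT-WD of LI (SD, n = 6 each), and that of ASV_035 was 4.78 ± 5.35% and 12.7 ± 4.25%. For the family sum the log2 change was -0.88 ± 0.81 in LI (edgeR adjusted p = 0.561) and -3.33 ± 1.70 in SI (edgeR adjusted p = 0.305), and the SI value passed with DESeq2 (adjusted p = 0.0408) and limma (adjusted p = 0.0354). No family was called in WT mice in either site (0.0%).

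In KO mice, 34 of the 46 members tested in LI and 233 of all 273 ASVs had a measurable ratio between the diets. The WT-only members had no count in KO mice and could not be called. Of the 46 members, 1 was called in LI, lower on the Western diet, against 1.1% of all ASVs (0.733% lower). This was ASV_112, at 0 to 1.08% (median 0.433%) in KO-ND with counts in 7 of 8 libraries and at 0 in all 8 KO-WD libraries, at least 368-fold lower (edgeR adjusted p = 0.00988). ASV_112 had LI counts in KO-ND only and could pass the filter only through that group. It could be called only lower, so this call describes where its counts lay and is no separate support for a diet effect. ASV_065 and ASV_074 were in all 8 KO-ND libraries of LI, at 0.551 to 1.03% and 0.479 to 1.15%, and in 2 of 8 KO-WD libraries, at up to 0.131% and 0.109%. Neither passed the threshold (edgeR adjusted p = 0.0752 for both), although the diets did not overlap. ASV_045 and ASV_047 had LI means that differed 1.12-fold and 1.07-fold between the diets. As a part of the family, ASV_045 was 5.39 ± 1.67% in KO-ND (n = 8) and 12.04 ± 3.06% in KO-WD, and ASV_049 was 10.8 ± 5.79% in KO-ND and 1.48 ± 1.48% in KO-WD (SD, n = 7 in KO-WD). Other settings called 1 to 5 members in this comparison.

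In SI of KO mice, 8 of the 13 members tested and 62 of all 87 ASVs had a measurable ratio between the diets. The other members had no count in KO mice at the site and could not be called. Of the 13, 4 members were called lower on the Western diet and none higher (30.8%, against 14.9% of all ASVs tested, 9.2% lower). They were ASV_047, ASV_074, ASV_077 and ASV_084, with counts in 4, 4, 4 and 1 of 8 KO-ND libraries and none in KO-WD, at least 23.4-fold to 55.1-fold lower (edgeR adjusted p of 0.0309 to 0.0311). In SI, ASV_047, ASV_074 and ASV_077 had counts in KO-ND only and could pass the filter only through that group. They could be called only lower, so their calls describe where their counts lay and are no separate support for a diet effect. Of the KO libraries of SI, KO-ND replicate 5 had the highest share of all 4, at 0.272 to 0.503%. No member was called without that library or without KO-ND replicate 8 (0 called with each). ASV_047, ASV_074 and ASV_077 had counts in the fewest SI libraries that the filter allows. Leaving out any 1 of these libraries removed the ASV from testing. Each kept its call in the 24 fits with 1 library left out in which it was tested (highest edgeR adjusted p = 0.0490). None of the 4 members passed the stricter filter. The calls were lost with DESeq2, limma, the exact rank-sum test, no filter and the replicate block (0 called with each). The family sum in SI of KO mice was lower on the Western diet, with a log2 change of -5.67 ± 1.65 (SE, edgeR adjusted p = 0.0181), where 14.3% of families were called. Without KO-ND replicate 5 the log2 change was -4.28 (edgeR adjusted p = 0.0278), whereas the exact rank-sum test (adjusted p = 0.0685) and a fit of the KO groups alone (adjusted p = 0.0603) did not pass. In LI the change was -0.97 ± 0.71 (edgeR adjusted p = 0.545), where 6.9% of families were called.

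Whether the diet effect differed between genotypes was tested as an interaction. No member was called in LI (0 of 46, 2 at an unadjusted p under 0.05) or in SI (0 of 13, 0 unadjusted) with edgeR, where 0.0% of all ASVs were called in each site. DESeq2 called 0 members in both, and limma on centred log ratios called 4 in LI and 1 in SI. In LI, 12 WT-only and 28 KO-only members tested were at 0 on both diets of 1 genotype, as were 3 and 5 in SI. An interaction could not be estimated from the counts of these members, so their missing calls carry no weight. For the family sum the interaction was -2.34 ± 2.07 on the log2 scale in SI (edgeR adjusted p = 0.812, -0.95 without KO-ND replicate 5) and -0.09 ± 1.07 in LI (edgeR adjusted p = 0.9997). Among families 0.0% were called in SI and 3.45% in LI.

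The number of S24-7 ASVs per library and the Shannon index within the family differed between genotypes on the normal diet in LI. Numbers were counted at an equal depth of 22550 counts, and these tests are exact two-sided permutation tests with adjustment over 16 comparisons. In LI the number was 12 to 18 (mean 15.3 ± 2.15, SD, n = 6) in WT-ND and 21.97 to 36 (mean 27.4 ± 4.75, SD, n = 8) in KO-ND, without overlap (exact p = 0.000333, the smallest this design allows, adjusted p = 0.00266). It was 10.7 ± 1.86 (SD, n = 6) in WT-WD, lower than in WT-ND (exact adjusted p = 0.0130). In KO-WD it was 0 to 28 (mean 19.6 ± 9.61, SD, n = 8) and differed neither from KO-ND (exact adjusted p = 0.0625) nor from WT-WD (exact adjusted p = 0.0594) past the threshold. The latter difference passed without KO-WD replicate 5, which had none (exact adjusted p = 0.00666), and without KO-WD replicate 2 (0.0491), and the former passed without KO-WD replicate 6 (0.0441), 7 (0.0481) or 8 (0.0423). In SI the number was 8.48 ± 2.87 in WT-ND and 3.33 ± 1.63 in WT-WD (SD, n = 6 each, exact adjusted p = 0.0130). It was 6.35 ± 6.28 in KO-ND and 0.625 ± 1.41 in KO-WD (SD, n = 8 each, exact adjusted p = 0.0207), and this difference kept its call without KO-ND replicate 5 (exact adjusted p = 0.0276). KO-WD was also lower than WT-WD (exact adjusted p = 0.0224), and the difference of KO-ND from WT-ND was -2.13 (exact adjusted p = 0.475), or -4.06 without KO-ND replicate 5 (exact adjusted p = 0.0552).

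**Figure D4:**
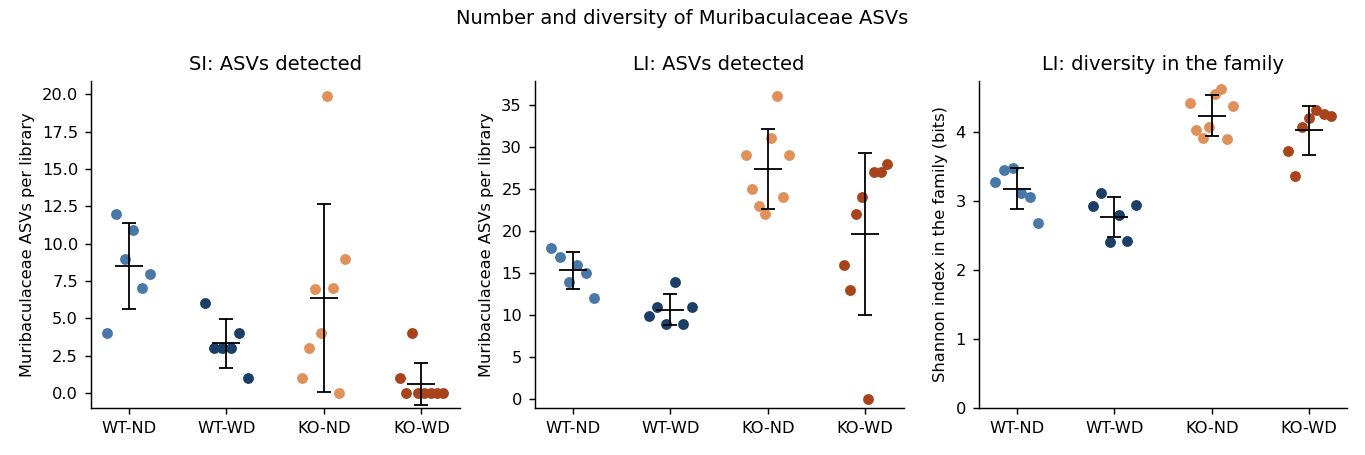
Number of Muribaculaceae ASVs per library at an equal depth of 22550 counts in SI and LI (left and middle) and the Shannon index within the family in LI (right, in bits), 1 point per library, with mean and SD in black. In LI all KO-ND points lie above all WT-ND points for both measures.

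The Shannon index within the family, in bits, is higher where more ASVs are present and where their shares are more alike. In LI it was 3.17 ± 0.30 in WT-ND (SD, n = 6) and 4.23 ± 0.29 in KO-ND (SD, n = 8), without overlap (exact adjusted p = 0.00266). It was 2.76 ± 0.29 in WT-WD (n = 6) and 4.02 ± 0.35 in KO-WD (n = 7, without the library that had no S24-7 count), again without overlap (exact adjusted p = 0.00373). Between diets it did not pass in WT mice (exact adjusted p = 0.0535) or in KO mice (0.240), and the WT difference passed without WT-ND replicate 6 (0.0115) or WT-WD replicate 2 (0.0378). The most abundant ASV of a library held 15.9 to 32.3% of the S24-7 counts in WT-ND and 20.4 to 41.05% in WT-WD of LI, and 9.01 to 23.8% in KO-ND and 10.7 to 16.2% in KO-WD. It was ASV_019, ASV_021 or ASV_025 in each of the 12 WT libraries of LI. In KO libraries 8 different ASVs took that place.

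The members in LI also recurred within a genotype. In WT-ND 28 ASVs were found in any library and 6 in all 6, and in WT-WD these numbers were 23 and 3. In KO-ND 53 were found in any library and 10 in all 8, and in KO-WD 48 and 0, since KO-WD replicate 5 had none, with 7 in all but 1. The mean Jaccard similarity, the share of ASVs that a pair of libraries had in common, was 0.528 within WT-ND, 0.540 within KO-ND, 0.462 between WT-ND and WT-WD and 0.388 between KO-ND and KO-WD. Between WT-ND and KO-ND it was 0.0363, and no pair of libraries from these groups shared more than 4 ASVs. This low similarity follows from the division of members by genotype given above. It was not computed for ASVs outside the family. Of all members with counts, 33 were found in 1 library and 14 in 2 or 3, and 11 had under 10 counts in all.

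S24-7 took a smaller part of the Bacteroidetes in KO mice. In LI it made up 92.5 to 96.1% (mean 93.8 ± 1.51%, SD, n = 6) of Bacteroidetes counts in WT-ND and 59.3 to 89.0% (mean 73.2 ± 12.2%, SD, n = 6) in WT-WD, without overlap (exact adjusted p = 0.00577). It was 32.5 to 72.8% (mean 52.1 ± 14.3%, SD, n = 8) in KO-ND, below every WT-ND library (exact adjusted p = 0.00355). In KO-WD it was 0 to 59.5% (mean 34.4 ± 18.1%, SD, n = 8), lower than in WT-WD (exact adjusted p = 0.00373) and not told apart from KO-ND (exact adjusted p = 0.0594). The last difference passed without KO-ND replicate 5 (0.0348) or KO-WD replicate 6 (0.0201). Bacteroidetes as a whole were 16.1 ± 5.62% of LI libraries in WT-ND, 11.02 ± 7.70% in WT-WD (n = 6 each), 21.1 ± 10.7% in KO-ND and 14.7 ± 6.63% in KO-WD (n = 8 each).

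Other Bacteroidetes families filled the remainder in KO mice. Paraprevotellaceae had no count in WT mice and was at 6.26 ± 5.45% in KO-ND and 2.64 ± 1.52% in KO-WD of LI (SD, n = 8 each, edgeR adjusted p for genotype = 1.51e-08). Odoribacteraceae, represented by 1 ASV, was likewise found in KO mice only, in 7 of 8 KO-ND and 6 of 8 KO-WD libraries of LI (edgeR adjusted p = 1.21e-05). Both families could pass the filter only through KO mice, so their adjusted p are no separate support for the difference. Of the 29 families tested in LI, 41.4% were called for genotype. Bacteroidaceae, a family that holds the genus Bacteroides, was at 0.230 ± 0.205% in WT-ND, 0.470 ± 0.510% in WT-WD, 2.96 ± 2.06% in KO-ND and 5.04 ± 7.46% in KO-WD, a log2 change with genotype of 3.55 ± 0.76 (SE, edgeR adjusted p = 0.000242). Rikenellaceae (edgeR adjusted p = 0.365) and Porphyromonadaceae (edgeR adjusted p = 0.910) did not pass. LI of KO-WD replicate 5, where S24-7 was at 0 of 35236 counts, had 23.1% Bacteroidaceae, the highest of all libraries, and no Rikenellaceae, Paraprevotellaceae, Odoribacteraceae or Porphyromonadaceae. This library was chosen for description after its values were seen. In SI, S24-7 made up 99.3% of Bacteroidetes in WT-ND, 93.1% in WT-WD (lowest library 68.1%) and 99.8% in the 7 KO-ND libraries that had Bacteroidetes counts (means). In KO-WD only 3 SI libraries had any Bacteroidetes, and S24-7 was 0, 77.8 and 100% of them (mean 59.3%).

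In every group the family had a larger share in LI than in SI. SI and LI libraries of the same number were taken as the same mouse after a check of their similarity. LI was higher in 6 of 6 WT-ND, 6 of 6 WT-WD, 8 of 8 KO-ND and 7 of 8 KO-WD mice, and the remaining KO-WD mouse, replicate 5, had no S24-7 count in either site. With 0.5 added to each count, the mean log2 difference was 2.36 in WT-ND, 4.62 in WT-WD and 5.53 in KO-ND (exact permutation test of unpaired libraries, adjusted p = 0.00866, 0.00577 and 0.000622). It was 8.53 in KO-WD (exact adjusted p = 0.00311), a value that depends on the 0.5 added because 6 of 8 SI libraries were at 0. These tests leave the pairing by mouse aside, and with it the exact adjusted p was 0.0313 in each of the 4 groups. Whether these differences varied between groups was not tested.

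**Figure D5:**
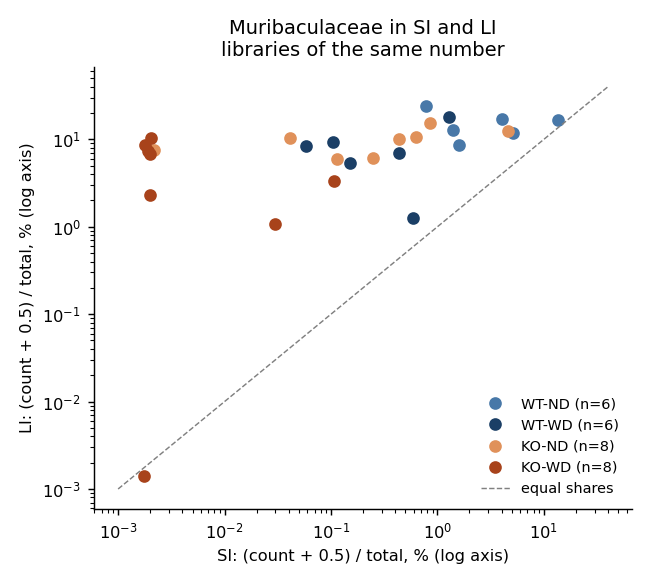
Muribaculaceae as percent of the library total, with 0.5 added to each count, in SI (horizontal, log axis) and LI (vertical, log axis), 1 point per mouse, colored by group, with a dashed line at equal shares. All 6 WT-ND and 6 WT-WD, 8 KO-ND and 7 of 8 KO-WD points lie above the line, and the remaining KO-WD point, with no S24-7 count in either site, lies near it.

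The members found in SI were mostly those of the LI of the same mouse. Summed over mice, there were 127 findings of an ASV in SI, of which 109 were also in the LI library of that mouse, while LI libraries had 532 findings. By ASV, 91 members were found in LI and 43 in SI, and 4 were found in SI alone. The share of LI ASVs (at least 10 counts) that was also found in SI of the mouse was 24.8 ± 22.3% for S24-7 and 26.4 ± 9.26% for other ASVs (SD, n = 27 mice, difference -1.58 percentage points, sign-flip permutation p = 0.679). For ASVs with at least 100 counts in LI it was lower for S24-7, at 33.7% against 56.1% in 24 mice (sign-flip permutation p = 0.00106). Divided by group, which was done after the pooled value was seen, the share for S24-7 was 51.5 ± 15.6% in WT-ND against 27.6 ± 9.33% for other ASVs, and S24-7 was higher in 6 of 6 mice (exact p = 0.0313, the smallest possible, adjusted p = 0.0625 over 4 groups). In KO-WD it was 2.46 ± 4.23% against 19.9 ± 4.53% and lower in 7 of 7 mice (exact p = 0.0156, the smallest possible, adjusted p = 0.0625). At a minimum of 100 counts it was 65.2% against 61.3% in WT-ND, higher in 3 and lower in 3 mice (exact adjusted p = 0.656), and 0 against 48.1% in 5 KO-WD mice (exact adjusted p = 0.104). At 10 counts it was 30.6% against 37.9% in WT-WD and 20.1% against 22.6% in KO-ND, with exact adjusted p of 0.292 and 0.664. In WT-ND the LI ASVs that were also found in SI had a median LI count of 257 and the others 100, and in KO-ND these medians were 158 and 58.5. In WT-WD they were 339 and 108, so that in these 3 groups the members also found in SI were the more abundant ones of LI. In KO-WD only 3 findings were shared, with a median LI count of 29 against 50.5.

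Some members kept a nearly fixed ratio to each other over LI libraries. ASV_065 and ASV_074 were found in the same 10 LI libraries, and the count of ASV_074 was 0.833 to 1.13 times that of ASV_065 (median 0.888). ASV_071 and ASV_077 were found in the same 10 libraries as each other as well, at a ratio of 0.787 to 1.15 (median 0.896). The SD of the log2 ratio was 0.161 and 0.175, below the 0.229 and 0.274 that counting error alone gives, whereas the median SD over the 221 pairs compared was 1.18. ASV_019 and ASV_035, found together in 11 libraries, had a ratio of 0.197 to 0.524 (SD of the log2 ratio 0.405), and ASV_025 and ASV_031 one of 0.353 to 1.13 (0.523). These pairs were picked as the steadiest or most abundant after the values were seen, and no test was made.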

How the data were processed

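The authors amplified the V3–V4 region and, by their methods and processing notes, selected reads by primer (FASTX-Toolkit 0.0.14), trimmed them for quality (Sickle 1.33), joined pairs (FLASH 1.2.11), denoised them and removed chimeras with DADA2 in QIIME 2 2021.4 and assigned taxa from Greengenes 13_8. The deposited values are raw counts per ASV and library, not normalized; the smallest count above 0 is 2, so ASVs seen once are not represented. PCR reads are not independent molecules, and limits given for 0 counts cover counting error alone.

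Members and lists were chosen with earlier results of these data known. ASVs with a mean share of at least 0.01% over the 28 libraries of a site and counts in at least 4 were tested with edgeR 4.0.16 (quasi-likelihood, library totals as scaling, 4 groups in 1 fit) in R 4.3.3, with Benjamini-Hochberg adjustment and a threshold of 0.05. The SE is the log2 change divided by the square root of F. Families were tested likewise. Numbers of ASVs are means of 100 random draws of 22550 counts. "At least" folds use 3 counts over the pooled libraries of the group at 0. Single values were compared by exact permutation tests and sign flips (100000 draws) in Python 3.11.15. Scripts were tested on simulated data. Named were the 12 members with the highest mean of the 8 group means and, per comparison and direction, the 3 called members of lowest adjusted p; ASV_065, ASV_084, ASV_141 and the library pairs were added after the values were seen. Alternatives were TMM factors, DESeq2 1.42.0 (poscounts), limma 3.58.1 on centred log ratios, no filter, a filter at 0.1%, rank-sum tests, counts rarefied once, a block for the replicate number, fits of the compared groups only, and leaving out each replicate.

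SI and LI libraries of the same number were more alike (mean similarity 0.585) than those of other numbers in the group (0.473, permutation p = 1e-05, the smallest these draws can give), and were taken as 1 mouse. Across groups the numbers did not pair mice.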

Additional observations from a re-analysis of the deposited data

Results flagged for a closer look

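In 72 sets of 6 to 8 libraries, the distance of the highest or lowest library from its nearest neighbor, as a part of the range, was compared with the 95% limit of Dixon's test. It passed in 11 sets. The limit lets about 1 in 20 pass by chance for normal values, but many sets here held libraries at 0. The 11 sets can therefore not be set against that rate. Where only 1 of 8 libraries had counts, as for ASV_019 and ASV_035 in LI of KO-WD, the limit was passed in any case. The family share was far above the rest of its group in SI of WT-ND replicate 4 (13.4%), KO-ND replicate 5 (4.62%) and KO-WD replicate 3 (0.105%). The number of members was likewise high in SI of KO-ND replicate 5 (19.9) and of KO-WD replicate 3 (4.0). SI of KO-ND replicate 5 also had the highest Clostridiales share of its group (49.2%), and the part of this in its S24-7 values was not tested. In LI, ASV_059 stood out in WT-ND replicate 6 (2.08%), ASV_021 in WT-WD replicate 3 (7.36%) and in KO-ND replicate 5 (0.540%), and ASV_038 in KO-ND replicate 3 (2.40%). ASV_019 (0.144%) and ASV_035 (0.0722%) stood out in KO-WD replicate 6, the only KO library with either.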

How the results depend on the processing

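Of 198 values of the main comparisons under the alternatives that kept all libraries, 163 stayed on their side of the threshold and in their direction, and of 235 values for named ASVs 217 did and 18 lost the call; none of the latter turned. Counts of members called (edgeR main value in parentheses) were as follows where they moved. With a filter at a mean share of 0.1% they were 24 (42) for genotype and 24 (42) for KO-WD against WT-ND in LI, 4 (9) and 4 (7) in SI, and 2 (1) for diet in KO in LI. In KO LI the diet count was 2 with DESeq2, 4 with the rank-sum test, 5 with limma, 3 with no filter and 3 with the replicate block, and 1 to 3 with replicates left out. In KO SI it was 0 (4) with each of DESeq2, rank-sum, limma, the 0.1% filter, no filter and the block, and 0 to 6 with replicates left out. The rank-sum test gave 14 in LI and 3 in SI for KO-WD against WT-ND. Limma called 3 in LI and 5 in SI for diet in WT and 4 and 1 for the interaction, where edgeR called 0. The family sum passed in LI for KO-WD against WT-ND with DESeq2 (-2.20), rank-sum (-1.59) and limma (-3.99), and for genotype with DESeq2 (-1.20) and limma (-2.08). It passed in SI for diet in WT with DESeq2 (-3.78) and limma (-3.95). It lost its call in SI for diet in KO with rank-sum (-5.70) and with those groups alone (-5.67). The LI interaction of the family sum turned to 0.83 with TMM and was -0.33 to 0.30 with replicates left out, where it turned in 6 of 28 fits. The share of LI ASVs found in SI was 0.11 points higher for S24-7 at a minimum of 2 counts (sign-flip permutation p = 0.976) and lower at 100 (difference -22.4 points, sign-flip permutation p = 0.00106). TMM factors moved the median log2 genotype effect of all LI ASVs from 0.02 to 0.62.

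With the replicate number as a block, 24 (42) members were called for KO-WD against WT-ND in LI, 42 (42) for genotype in LI and 8 (9) in SI. The numbers share nothing across groups but the number: correlations of same-numbered libraries were -0.262 to 0.214 in SI and -0.102 to 0.178 in LI, and in 7 and 5 of 38 comparisons between groups a library correlated best with the library of its own number. With replicates left out, the LI family sum for KO-WD against WT-ND was -1.83 to -1.40 (adjusted p 0.0346 to 0.189), the Shannon difference of WT-WD from WT-ND -0.51 to -0.34, the number of LI members in KO-WD minus that in KO-ND -8.94 to -4.94 and minus that in WT-WD 7.77 to 11.8, and the KO-WD minus KO-ND difference in the S24-7 share of Bacteroidetes -21.2 to -12.7 points. The causes of these changes were not tested, except that the 0.1% filter tests fewer members and that leaving out a library can remove a member from testing. A count of 0 in a library without S24-7 allows a share of up to 0.0130%, so lower levels there were not detectable at this depth. The division of members by genotype without KO-WD replicate 6 was added after seeing the data; the part of WT counts from shared ASVs was then 19.5% (50.5%).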
